A study of Mus musculus with 6 samples.

Results

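The threonine, glycine and one-carbon genes described here are the 10 genes Tdh, Gcat, Gldc, Shmt1, Shmt2, Mthfd1, Mthfd2, Phgdh, Psat1 and Psph. They were taken by gene symbol from the bulk RNA-seq gene count tables of mouse embryonic stem cells (mESCs) and of cardiac precursor cell cultures (CPCCs). All 10 members were listed in both tables, among 16279 genes listed in either, and all 10 passed the filter on low counts. The mESCs were male F1 cells of a C57BL/6J mother and a CAST/EiJ father, grown on gelatin in 2i medium with LIF, as 3 clones each expanded from a single cell and from its own blastocyst. For the CPCCs, these clones were aggregated in hanging drops, moved to floating culture with ascorbic acid as embryoid bodies, dissociated and grown in medium with EGF and Fgf2, and were used at the fourth passage. Both groups therefore carry the same hybrid genotype, and the CPCCs are a mixture of cell types. There were 3 libraries of each, S01 to S03 from mESCs and S04 to S06 from CPCCs, and their columns do not show which clone a library came from. Library totals were 6442639 to 6907330 estimated counts for mESCs and 8468819 to 11436062 for CPCCs.

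These enzymes make and break down serine, glycine and threonine and load single carbon units onto folate, from which cells build purines, thymidylate and the methyl groups of methionine. Serine is made from a glycolytic intermediate by Phgdh, Psat1 and Psph in turn, and its conversion to glycine by the Shmt enzymes gives a folate-bound carbon that the Mthfd enzymes carry on. In the mouse, Tdh and Gcat turn threonine into glycine and acetyl-CoA inside mitochondria, and mouse embryonic stem cells are known for abundant threonine dehydrogenase and for their need of threonine in the medium.

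Of the 10 members, 8 fell in CPCCs (adjusted p under 0.05, edgeR quasi-likelihood test with Benjamini-Hochberg adjustment over all 12471 genes tested), beside 29.7% of all genes tested. None rose at this threshold, beside 31.7% of all genes tested, and Phgdh and Gldc did not pass it. In the same 8 members all 3 CPCC libraries lay below all 3 mESC libraries, an order found in 35.5% of all genes tested. The median log2 fold change (CPCC over mESC) of the members was -1.27, and that of all genes tested was 0.03. Tdh fell furthest, by 78.4-fold, and by the estimates alone 6 members fell by at least 2-fold. The smallest of these falls, that of Shmt2, ranked 2355 among the 12471 genes tested. When a change of over 2-fold was tested (edgeR's glmTreat), 4 members passed as lower, beside 3520 genes called in either direction. The replicates are separate clones of each cell type, so the p-values measure the spread between clones and their cultures. In bulk RNA a smaller share of cells that express a gene and less of its RNA per cell cannot be told apart.

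The identity of the groups was read from marker lists in the same fit. All 12 mESC markers fell in CPCCs, most of all Tfcp2l1, Zfp42 and Esrrb (log2 fold changes -7.35, -5.55 and -5.37). Their summed level was 6988 to 7323 CPM (counts of a gene per 1000000 counts of its library) in mESCs and 156, 351 and 519 CPM in S04, S05 and S06. Of 12 cardiac progenitor markers, Tnnt2 and Tbx20 rose (log2 fold changes 5.01 and 2.72), Gata4, Isl1 and Pdgfra did not pass, Hand1, Hand2, Kdr, Mef2c and Nkx2-5 were listed in the CPCC table alone, Tbx5 in the mESC table alone and Mesp1 in neither, and the list summed to 8.54 to 13.6 CPM in mESCs and 73.9 to 192 CPM in CPCCs. Fibroblast and mesenchymal markers summed to 99.6 to 134 CPM in mESCs and to 8667 to 11963 CPM in CPCCs, where 4 of 10 were tested and all 4 rose (Col1a1, Pdgfrb and Vim most, by 12.40, 5.06 and 4.89 on the log2 scale), and the other 6 were listed in the CPCC table alone. Endoderm markers summed to 15.4 to 29.4 CPM in mESCs, against 162 to 223 CPM in CPCCs (3 of 4 tested rose, Foxa2, Gata6 and Dab2, with log2 fold changes of 4.94, 3.17 and 3.11), with Afp, Apoa1 and Ttr in neither table, and neural markers to 43.9 to 47.8 and 508 to 627 CPM (5 of 5 tested rose, Pou3f2, Nes and Sox1 most, with log2 fold changes of 4.86, 4.63 and 3.86). The part of other cell types in the members' values was not tested.

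Tdh encodes threonine dehydrogenase, the mitochondrial enzyme that opens the breakdown of threonine, and is listed on chromosome 14 from 63492347 to 63509093 (minus strand, GRCm38). Its level was 549.8 CPM in S01, 529 in S02 and 492 in S03. The CPCC libraries S04, S05 and S06 held 1.92, 9.06 and 8.97 CPM. The groups lay far apart, and S04 held 22 Tdh counts against 77 and 76 in the other CPCC libraries and 3396 to 3592 in mESC libraries. The means were 523 ± 29.4 CPM in mESCs and 6.65 ± 4.09 CPM in CPCCs (SD, n = 3 each), a log2 fold change of -6.29 ± 0.47 (SE, adjusted p = 9.38e-06). The fall ranked 24 among 12471 genes tested. Leaving out single libraries gave log2 fold changes between -6.60 and -5.84. A transcribed processed pseudogene, Gm13929, matches the Tdh transcript at 97.1% identity over 1125 bases, and the antisense gene Gm17232 overlaps it. Neither of these is listed in the tables, and whether counting used the strand is not given in the sources used here, so reads from them could be counted as Tdh.

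Gcat encodes the ligase that splits the product of Tdh into glycine and acetyl-CoA (chromosome 15, 79030874 to 79042532, plus strand). In mESCs Gcat was measured at 84.0, 84.2 and 64.6 CPM, against 4.81, 18.9 and 19.1 CPM in S04, S05 and S06. As for Tdh, the groups did not overlap and S04 was the lowest library. The mean fell from 77.6 ± 11.3 to 14.3 ± 8.21 CPM, a log2 fold change of -2.42 ± 0.41 (SE, adjusted p = 0.000912).

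Gldc encodes the glycine decarboxylase of the mitochondrial glycine cleavage system, which breaks glycine down and passes 1 of its carbons to folate (chromosome 19, 30098441 to 30175442, minus strand). Its level was low in every library, at 12.4, 17.1 and 11.4 CPM in mESCs, against 6.82, 13.1 and 16.8 CPM in CPCCs. The groups overlapped, with S04 lowest and S02 and S06 highest. The log2 fold change was -0.13 ± 0.34 (SE, adjusted p = 0.755), and it was 0.06 without S02 and 0.14 without S04, so no direction can be given. Of the other subunits of the system, Gcsh, the lipoyl-carrying H protein, fell by 1.45 ± 0.16 on the log2 scale (adjusted p = 6.76e-05), and Amt, the aminomethyltransferase, fell by 1.61 ± 0.50 (adjusted p = 0.0189). Dld, a dehydrogenase that other mitochondrial complexes also use, did not pass (log2 fold change -0.19 ± 0.27, adjusted p = 0.570). Gcsh was the more abundant of the pair that fell, at 459 to 472 CPM in mESCs and 139 to 202 CPM in CPCCs.

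**Figure D1:**
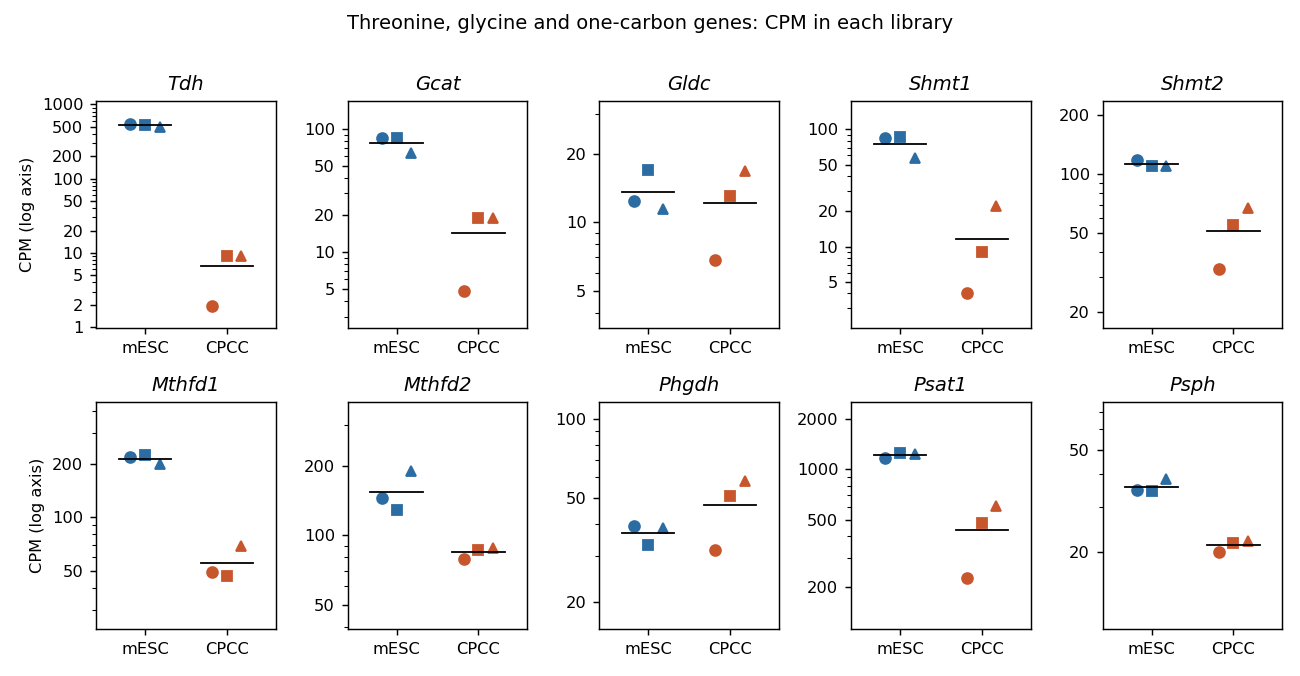
CPM of each member in each library (log axis, with a range of its own in each panel), with points from left to right for S01, S02 and S03 (mESC, blue) and S04, S05 and S06 (CPCC, orange) and a line at the group mean. The groups are apart in 8 panels and overlap for Gldc and Phgdh, and S04 is the lowest CPCC library in 9 of 10 panels.

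Shmt1 and Shmt2 encode the serine hydroxymethyltransferases of the cytosol and of mitochondria, which move a carbon from serine to folate and leave glycine. Shmt1 (chromosome 11, 60788897 to 60811266, minus strand) was measured at 83.8, 86.7 and 56.5 CPM in mESCs, against 4.02, 9.06 and 22.1 CPM in CPCCs. All CPCC libraries lay below the mESC libraries, but S06 was over 5 times as high as S04. Shmt1 fell by 2.69 ± 0.48 on the log2 scale (SE, adjusted p = 0.00119), and without S06 by 3.45. Shmt2 (chromosome 10, 127517123 to 127522445, minus strand) was measured at 117, 111 and 110.2 CPM in mESCs, against 32.9, 55.0 and 67.2 CPM in CPCCs. The mESC libraries were nearly level and the CPCC libraries were lower and more spread. Shmt2 fell by 1.09 ± 0.22 on the log2 scale (adjusted p = 0.00229). Ndufa4l2, listed in both tables, overlaps Shmt2 by 32 bases on the other strand.

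Mthfd1 and Mthfd2 encode enzymes that interconvert folate-bound carbon units, Mthfd1 in the cytosol and Mthfd2 in mitochondria. Mthfd1 (chromosome 12, 76255232 to 76319821, plus strand) was measured at 219.6, 224 and 200.4 CPM in mESCs, against 48.8, 46.8 and 69.1 CPM in CPCCs. Its mESC libraries were close, S06 stood above the other CPCC libraries, and the groups lay far apart. Mthfd1 fell by 1.92 ± 0.18 on the log2 scale (adjusted p = 2.90e-05). An antisense gene, Gm34868, which neither table lists, lies over 19090 bases of Mthfd1, and without strand its reads could be counted as Mthfd1. Mthfd2 (chromosome 6, 83305704 to 83317605, minus strand) was measured at 145, 129 and 189 CPM in mESCs, against 78.4, 86.4 and 87.9 CPM in CPCCs. Here S03 stood above the other mESC libraries and the CPCC libraries were close together. Mthfd2 fell by 0.82 ± 0.19 on the log2 scale (adjusted p = 0.00433).

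The mitochondrial and cytosolic genes of these 2 pairs were set against each other within each library, where the ratio of counts does not depend on library size. Counts were not divided by transcript length, so a ratio above or below 1 does not show which gene of a pair stood higher. The ratio of Shmt2 to Shmt1 was 1.40, 1.28 and 1.95 in the mESC libraries, against 8.17, 6.08 and 3.04 in the CPCC libraries. On the log2 scale it was 0.60 ± 0.32 in mESCs and 2.41 ± 0.73 in CPCCs, a difference of 1.81. The ratio of Mthfd2 to Mthfd1 was 0.661, 0.574 and 0.943 in mESCs and 1.61, 1.85 and 1.27 in CPCCs. Its log2 value was -0.49 ± 0.37 in mESCs and 0.64 ± 0.27 in CPCCs, a difference of 1.13. In both pairs all 3 CPCC libraries had a higher ratio than any mESC library. The two-sided exact permutation test gave p = 0.1 for each (adjusted over the 2 ratios, 0.1), the smallest p that 3 libraries against 3 allow. Mthfd1l, another mitochondrial gene of this pathway, which makes formate from folate-bound carbon, fell by 1.96 ± 0.20 on the log2 scale (adjusted p = 5.02e-05).

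**Figure D2:**
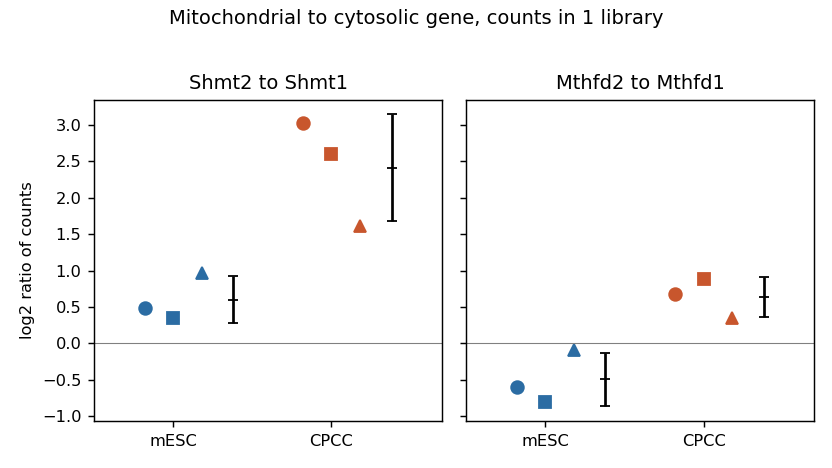
Log2 ratio of the counts of the mitochondrial to the cytosolic gene in each library (S01, S02 and S03 in blue, S04, S05 and S06 in orange, from left to right), with the group mean and SD as black bars. The CPCC libraries lie above the mESC libraries for both ratios, by 1.81 for Shmt2 to Shmt1 and 1.13 for Mthfd2 to Mthfd1 on average.

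Phgdh, Psat1 and Psph encode the enzymes of serine synthesis in their order, the dehydrogenase that takes 3-phosphoglycerate out of glycolysis, the aminotransferase and the phosphatase. Phgdh (chromosome 3, 98313171 to 98339970, minus strand) was measured at 39.3, 33.1 and 38.5 CPM in mESCs, against 31.7, 50.9 and 58.3 CPM in CPCCs. S05 and S06 lay above every mESC library and S04 below them all. The log2 fold change was 0.38 ± 0.22 (adjusted p = 0.155), and without S04 it was 0.57 (adjusted p = 0.0162), past the threshold. Phgdh values are uncertain because 19 other annotated genes, mostly processed pseudogenes, match its transcript at 90% identity or more over at least 200 bases, and none of them is listed in either table.

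Psat1 (chromosome 19, 15905123 to 15925060, minus strand) was measured at 1174, 1255 and 1227 CPM in mESCs, against 227, 480.6 and 608 CPM in CPCCs. The mESC libraries differed little, while S06 was over 2 times as high as S04. Psat1 fell by 1.45 ± 0.27 on the log2 scale (adjusted p = 0.00153). A processed pseudogene, Gm12611, which neither table lists, matches the Psat1 transcript at 91.0% identity over 1056 bases. Psph (chromosome 5, 129765558 to 129787254, minus strand) was measured at 34.8, 34.6 and 38.4 CPM in mESCs, against 20.0, 21.6 and 22.0 CPM in CPCCs. Both groups were tight, and Psph fell by 0.70 ± 0.19 on the log2 scale (adjusted p = 0.0107). Psph overlaps Cct6a on the other strand, by 257 bases of the gene as listed. In its longer annotated transcript the same overlap is 452 bases, which match a Cct6a transcript at 100% identity. Reads of this stretch could belong to either gene. Cct6a was far more abundant and also fell, from 1070.0 to 1115 CPM in mESCs to 429.9, 432 and 539 CPM in S04, S05 and S06 (log2 fold change -1.18 ± 0.14, adjusted p = 0.000113). Its part in the Psph value was not tested. Of the serine synthesis genes, therefore, Psat1 and Psph fell and Phgdh did not pass the threshold. The difference between Phgdh and the others was not tested.

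**Figure D3:**
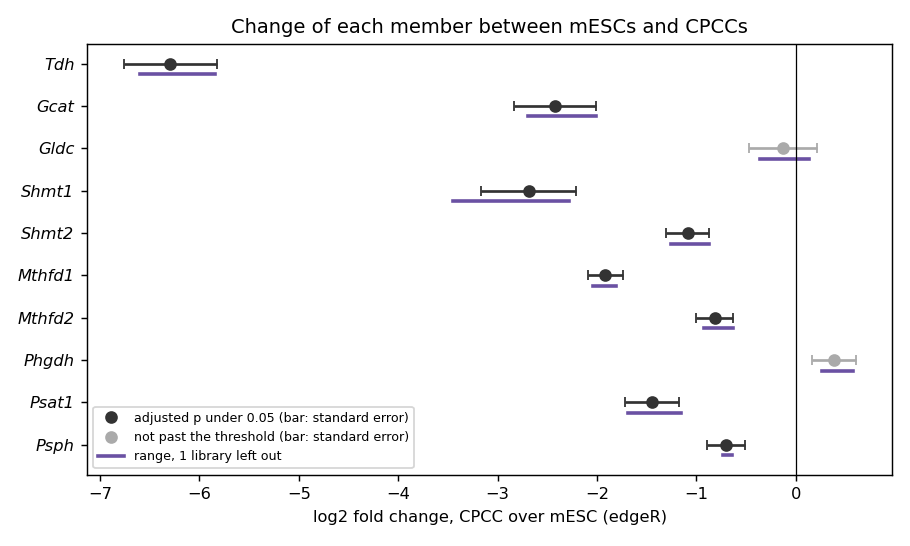
Log2 fold change (CPCC over mESC, edgeR) of each member with its standard error, black for members past an adjusted p of 0.05 and grey for the others, and in purple the range when single libraries are left out. Tdh lies at -6.29, the other members that fell lie between -2.69 and -0.70, and the bar of Gldc crosses 0.

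Levels of different genes were compared as CPM per kb of the longest annotated coding transcript. In mESCs Psat1 stood highest at 466 ± 15.7 CPM per kb, followed by Tdh at 278 ± 15.6, and neither range met that of its neighbours. Psat1 ranked 122 and Tdh 242 of 12976 genes with a length. Below them came Mthfd2 and Mthfd1 at 74.0 ± 14.9 and 66.3 ± 3.93 CPM per kb, whose ranges overlapped, and then Shmt2 at 49.3 ± 1.80. From Gcat through Shmt1, Psph and Phgdh, at means of 32.7 down to 19.5 CPM per kb, each range overlapped the next. Gldc stood apart at 3.62 ± 0.80 CPM per kb. In CPCCs Psat1 still stood highest at 167 ± 74.1 CPM per kb, rank 346 of 14499 genes, followed by Mthfd2 at 40.4 ± 2.44. Phgdh, Shmt2 and Mthfd1, at 24.8, 22.6 and 16.9 CPM per kb, overlapped in turn, and Psph lay below them at 12.2 ± 0.60. Tdh was next to last at 3.54 ± 2.18 CPM per kb, rank 9270, and its range overlapped those of Shmt1 above and Gldc below.

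**Figure D4:**
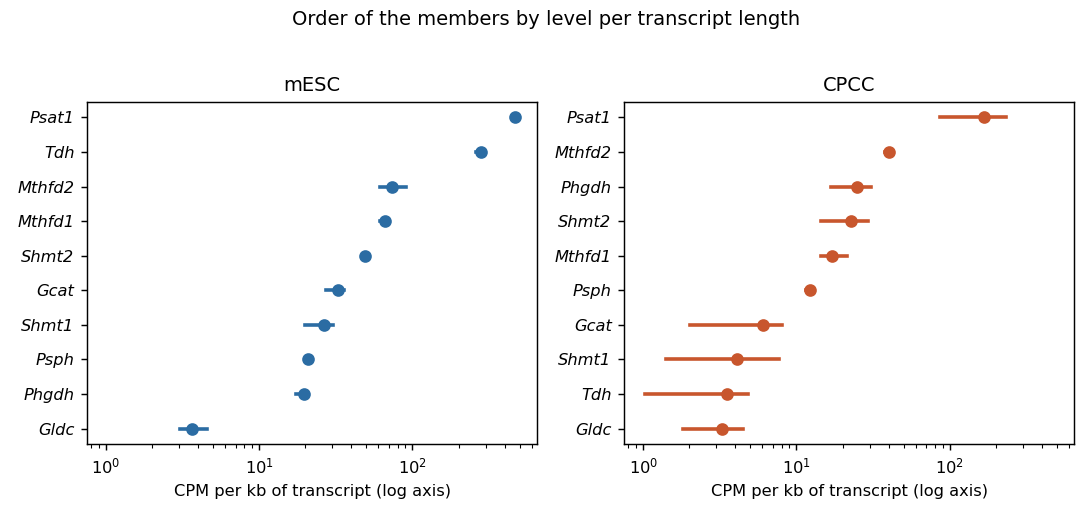
Members ordered by mean level in CPM per kb of transcript (log axis) in mESCs and in CPCCs, with points for the mean and lines from the lowest to the highest of 3 libraries. Tdh is second in mESCs and ninth in CPCCs, while Psat1 is highest and Gldc lowest in both.

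Summed over the 10 members, the level was 2461, 2503 and 2428 CPM for mESCs, against 456, 792 and 979 CPM for S04, S05 and S06. Psat1 made up 47.7% to 50.6% of this sum in mESCs and 49.7% to 62.1% in CPCCs. The difference of the group means (CPCC minus mESC) was -1722 CPM (two-sided exact permutation test, p = 0.1, the smallest p possible), and -941 CPM without Psat1, an alternative chosen after seeing the data. In CPM over library totals, 9 of 10 members were lowest in S04 among the CPCC libraries (all but Mthfd1). In S06 9 of 10 were highest (all but Tdh). The TMM factors of the fit were 0.923, 1.01 and 1.07 for S04, S05 and S06, so the order of close values depends on the scaling. Neither the order after TMM scaling nor the share of all genes with this order was counted. The summed mESC markers and 10 summed proliferation markers were also lowest in S04 and highest in S06. The proliferation markers summed to 5008 to 5239 CPM in mESCs and to 709, 1731 and 2402 CPM in S04, S05 and S06. Of the other marker sums, that of neural markers had this order. Cardiac progenitor and endoderm sums were highest in S04 (192 and 223 CPM), and the fibroblast and mesenchymal sum in S05 (11963 CPM). Of the proliferation markers 9 fell and Mki67 did not pass, and the largest falls were those of Mcm5, Mcm2 and Ccnb1, with log2 fold changes of -2.60, -2.55 and -1.88 (largest adjusted p of the 3, 0.00120). Their part in the members' values was not tested.

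The genes whose levels across the 6 libraries were most like Tdh by Pearson's r of log2(CPM + 0.5) were Aunip, Pramef12 and Smtnl2, each at an r of 1.00 when rounded. These points form 2 groups far apart, and 2087 of the genes tested had an r above 0.95 with Tdh. Within CPCCs Tdh was lowest in S04 at 1.92 CPM, against 9.06 and 8.97 CPM in S05 and S06. Pramef12 was measured at 185, 186 and 156 CPM in mESCs, against 1.84, 6.35 and 7.08 CPM in CPCCs. For Gldc the most similar genes were Tbc1d17, Susd4 and Tbl3, at r of 0.989, 0.986 and 0.986, and 39 genes exceeded 0.95.

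Windows of 250 bases upstream of annotated gene starts (RefSeq, GRCm38.p6) were read for 9 of the 10 members, all but Tdh, with 2 windows for Psat1. Windows were searched on both strands for the CCAAT box (CCAAT), the GC box (GGGCGG), the TATA box (TATAAA), the E-box (CACGTG) and the C/EBP-ATF response element (TGATGNAA), the last an element that ATF4 binds at amino acid response genes. A CCAAT box was found for 7 of 9 members, against 33.8% of 32851 windows of all genes, and a GC box for 6 of 9, against 32.7%. A member counted if any of its windows held the box, so Psat1 counted over 2 windows, while the shares are per window. The members' windows held 40.8% (Shmt2) to 67.2% (Psph) GC, above the median of 52.4% for all windows except for Mthfd2, Phgdh and Shmt2. The part of GC content in these counts was not tested. A TATA box was found for Phgdh alone (12.4% of all windows), sharing a base with a CCAAT box, and neither the E-box (6.02%) nor the C/EBP-ATF element (3.45%) was found in these windows. Shown here, 5′ to 3′ on the gene's strand, are the windows of Shmt1 (chr11:60811266-60811515, minus strand), Gcat (chr15:79030624-79030873, plus strand) and Mthfd1 (chr12:76254982-76255231, plus strand), the members besides Tdh that fell most, and of Phgdh (chr3:98339970-98340219, minus strand), which did not pass the threshold. Capitals mark CCAAT and GC boxes on either strand, so that CCAAT on the other strand reads ATTGG and the GC box reads CCGCCC.
Shmt1: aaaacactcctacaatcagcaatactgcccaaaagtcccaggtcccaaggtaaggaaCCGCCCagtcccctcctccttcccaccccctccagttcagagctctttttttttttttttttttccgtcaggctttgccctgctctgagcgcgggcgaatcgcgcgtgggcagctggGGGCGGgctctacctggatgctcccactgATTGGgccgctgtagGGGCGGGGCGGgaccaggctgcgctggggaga
Gcat: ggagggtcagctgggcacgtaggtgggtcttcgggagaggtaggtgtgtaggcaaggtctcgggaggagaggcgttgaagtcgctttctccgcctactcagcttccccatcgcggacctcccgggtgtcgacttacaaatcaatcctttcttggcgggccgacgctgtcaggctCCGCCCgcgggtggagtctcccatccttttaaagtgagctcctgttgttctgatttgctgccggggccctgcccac
Mthfd1: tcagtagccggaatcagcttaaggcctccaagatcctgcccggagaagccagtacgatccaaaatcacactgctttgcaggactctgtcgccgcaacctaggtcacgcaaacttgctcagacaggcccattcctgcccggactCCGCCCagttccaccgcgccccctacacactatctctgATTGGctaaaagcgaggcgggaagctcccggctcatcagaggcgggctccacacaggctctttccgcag
Phgdh: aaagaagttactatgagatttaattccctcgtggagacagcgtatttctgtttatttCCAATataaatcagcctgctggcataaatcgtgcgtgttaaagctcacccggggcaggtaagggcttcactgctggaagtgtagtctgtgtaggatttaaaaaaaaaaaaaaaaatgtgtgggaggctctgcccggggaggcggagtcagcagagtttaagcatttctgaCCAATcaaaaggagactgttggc
In Shmt1 and Mthfd1 a CCAAT box on the other strand ends 43 and 65 bases before the start, and Shmt1 also holds 4 GC boxes, of which the last 2 share a base. Gcat holds a GC box that begins 76 bases before the start and no CCAAT box. Phgdh holds a CCAAT box from 23 to 19 bases before the start and no GC box. These matches describe letters in a window and not bound sites.

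The pathways that connect with the members were described from lists of genes. Beside the counts of this and the following lists, 29.7% of all genes tested fell and 31.7% rose. No list was tested against these shares. All 6 genes of purine synthesis around its folate-using steps fell, with a median log2 fold change of -1.50. Pfas, Paics and Ppat, enzymes of the early and middle steps, fell most, with log2 fold changes of -2.07, -1.98 and -1.61 (largest adjusted p of the 3, 8.75e-05). Paics was the most abundant of these 3, at 1617 to 1866 CPM in mESCs and 300.2, 402 and 569 CPM in S04, S05 and S06. Of 15 other folate enzymes and carriers tested, of 18 in the list, 6 fell, 2 rose and 7 did not pass, with a median of -0.23. Mthfd2l was listed in the CPCC table alone and Ftcd in neither. Among those that fell were Folr1, a folate receptor, with a log2 fold change of -2.68 ± 0.36 (adjusted p = 0.000231), and Mthfd1l, described above. Folr1 was measured at 86.0, 93.6 and 64.1 CPM in mESCs, against 6.03, 11.3 and 20.3 CPM in S04, S05 and S06. The pair that rose, Ggh and Aldh1l2, did so by 0.85 each (adjusted p = 0.0421 and 0.0482) and are named here after their values were seen. Aldh1l2 is a mitochondrial enzyme that oxidizes formyl-folate, and its groups did not overlap, at 7.80 to 17.4 CPM in mESCs and 18.2 to 28.3 CPM in CPCCs.

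Of 13 genes of the methionine cycle and of transsulfuration, 9 were tested, of which 8 fell and 1 rose, with a median log2 fold change of -0.96. Cbs and Cth, which turn homocysteine and serine into cysteine, fell, with log2 fold changes of -3.63 ± 0.32 and -2.33 ± 0.23 (larger adjusted p, 4.24e-05), and Ahcy, which clears S-adenosylhomocysteine, fell by 1.75 ± 0.21 (adjusted p = 0.000119). Cbs was measured at 68.3, 79.2 and 47.2 CPM in mESCs, against 3.06, 5.18 and 7.20 CPM in CPCCs. Bhmt, Bhmt2 and Gnmt were listed in the mESC table alone. The 1 that rose was Ahcyl1 (log2 fold change 0.88 ± 0.20, adjusted p = 0.00489), a relative of Ahcy, named after its value was seen.

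Other serine, glycine and threonine enzymes changed in both directions. Of 14 in the list 7 were tested, of which 2 fell, 3 rose and 2 did not pass, with a median of 0.40. Of all genes tested, 29.7% fell and 31.7% rose, and the difference from the other lists was not tested. Gatm, which uses glycine to start creatine synthesis, rose by 5.10 ± 0.53 on the log2 scale (adjusted p = 5.38e-05), from 0.442 to 1.59 CPM in mESCs to 21.7 to 41.4 CPM in CPCCs. Srr, serine racemase, rose by 2.57 ± 0.26 (adjusted p = 4.73e-05), and Pipox, an enzyme that makes glycine from sarcosine, fell by 1.79 ± 0.58 (adjusted p = 0.0235). Pipox was lowest in S04 at 1.92 CPM and highest among CPCCs in S06 at 20.1 CPM. Sardh, Sdsl and Tha1 were listed in the CPCC table alone, and Agxt, Agxt2, Dmgdh and Sds in neither.

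ATF4 is a transcription factor that is known to drive serine synthesis and other amino acid genes under amino acid shortage. In a list of 10 genes of this response, Atf4 included, 2 fell, 7 rose and 1 did not pass, with a median of 1.19. Asns, asparagine synthetase, fell by 2.67 ± 0.19 on the log2 scale (adjusted p = 7.62e-06), from 1357 to 1593 CPM in mESCs to 157, 244 and 277 CPM in S04, S05 and S06. The transcription factor genes Cebpb and Atf5 rose by 2.17 ± 0.43 and 1.80 ± 0.25 (larger adjusted p, 0.00218). Atf4 itself, named after its value was seen, fell by 0.51 ± 0.16 (adjusted p = 0.0197), at 708 to 785 CPM in mESCs and 391 to 579 CPM in CPCCs. The list summed to 2199 to 2501 CPM in mESCs and to 812 to 1145 CPM in CPCCs. The part of ATF4 in the members' values was not tested.

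**Figure D5:**
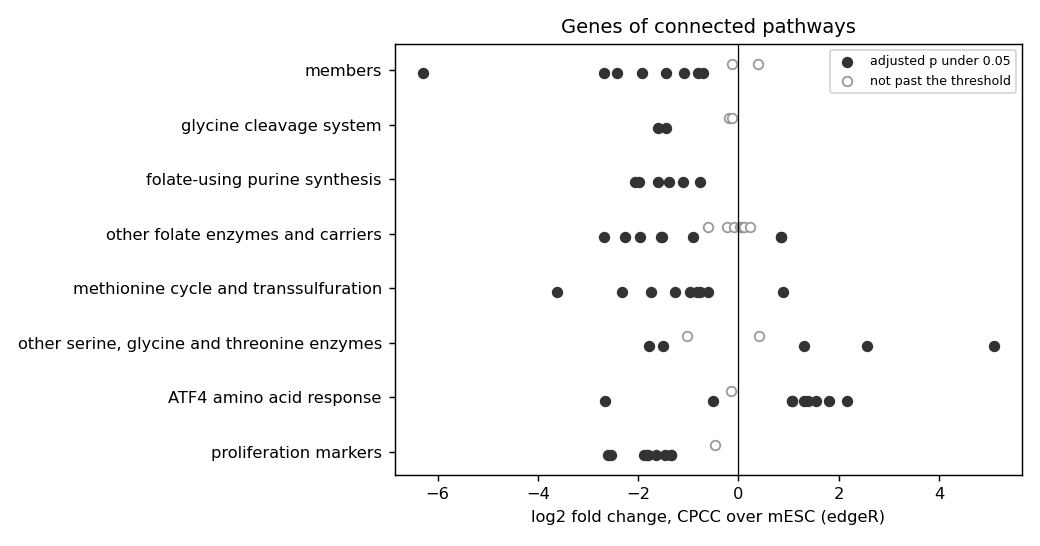
Log2 fold change (CPCC over mESC, edgeR) of each tested gene of the members and of the connected lists, filled where the adjusted p was under 0.05 and open otherwise. All 6 purine synthesis genes lie below 0, while 7 of 10 genes of the ATF4 list lie above 0 and past the threshold.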

How the data were processed

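Bulk RNA-seq of 3 mESC and 3 CPCC samples was analysed. PolyA+ cDNA (SMART-Seq v4) was sequenced as 125 nt paired-end reads. The deposited values are estimated counts per gene that the authors had not normalized, with 1 table for each cell type, and 17.9% to 21.5% of a library's values are not whole. The lowest sum of a gene over the 3 libraries of its table is 10 counts. The submitters' processing notes name STAR 2.7 and mm10, while the counter and its strand setting are not given in the sources used here. Columns were tied to a cell type by table and not to replicate numbers.

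CPM in the text is a count over the library total. Counts were rounded, and genes in both tables were tested with edgeR 4.0.16 (R 4.3.3; quasi-likelihood, TMM, filterByExpr) with Benjamini-Hochberg adjustment (threshold 0.05). The study named DESeq2 for this comparison, which was kept as an alternative (DESeq2 1.42.0). The fit was tested on simulated data. A standard error is the log2 fold change over the square root of F. In 1 library 3 counts equal 0.262 to 0.466 CPM, which bounds the precision of low values by counting error only. Transcript lengths and overlaps are from GENCODE, and similar genes were found with BLAST 2.17.0. Tests of summed levels and ratios used scipy 1.17.1.

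The members and lists were chosen with earlier results of these data known. All members are named, and of each other list the 3 genes with the largest change past the threshold, and for Tdh and Gldc the 3 most similar genes. A gene that this rule would name is not reported here. Alternatives were DESeq2, upper-quartile or no scaling, other filters and library sizes, missing genes at 0 or 3 counts, a 2-fold threshold, leaving out each library, a normalized sum and 1 added count in the ratios. Allele-specific, single-cell and chromatin data were not analysed here.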

Additional observations from a re-analysis of the deposited data

How the results depend on the processing

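Tdh, Gcat, Shmt1 and Mthfd1 kept their call and direction under all 15 alternatives to the fit. The number of members that fell was 8 under 14 alternatives and 4 when a change of over 2-fold was tested (edgeR's glmTreat), where Shmt2, Mthfd2, Psat1 and Psph no longer passed and the number of genes called over the whole table went from 7656 to 3520. Without single libraries the number of members that rose ranged from 0 to 1, the 1 being Phgdh without S04, and the log2 fold change of Gldc ranged from -0.36 to 0.14, reversed without S02 (0.06) and without S04 (0.14). The median log2 fold change of all genes tested was 0.03, and 0.17 with missing genes set to 0 counts. DESeq2 called 7896 genes. The summed level and both ratios kept their direction under every alternative run for them, and leaving out a library raised their smallest possible exact p to 0.2. No paired analysis was possible because the columns of the tables carry no replicate numbers. Tdh, Gcat and Shmt1, at 1.92 to 22.1 CPM in CPCCs, had the largest standard errors of the members (0.41 to 0.48), and Gldc, at 6.82 to 16.8 CPM there, had a standard error of 0.34. What depth adds to them was not tested.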
